A study of Mus musculus with 6 samples.

Results

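The Dlk1-Meg3 imprinted cluster of mouse chromosome 12 was followed in embryonic stem cells with and without the homeobox gene Hoxd12. Its members were taken by name: the noncoding RNAs Meg3, Rian and Mirg and the coding genes Dlk1, Rtl1 and Dio3, 6 of the 55450 genes listed in each library. The cluster was picked on the values of its noncoding RNAs and coding genes in the knockout against the wild type in these same libraries, so the members' own differences are given here as a description without a test. Polyadenylated RNA was profiled from 3 Hoxd12-/- libraries (knockout) and 3 wild-type libraries. All 6 came from C57BL6 embryonic stem cells, labelled as derived at the E3.5 embryo stage and grown in mES medium with 2i, which blocks the MEK and GSK3 kinases and keeps stem cells naive. The labels give no other agent or allele. Whether replicates are separate cultures, lines or clones is not stated. Each p-value therefore reflects how much these libraries vary, which could be technical variation.

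Genomic imprinting silences a gene according to the parent it came from. In this cluster a control region between Dlk1 and Meg3 carries DNA methylation on the paternal chromosome only. The unmethylated maternal copy produces Meg3, Rian and Mirg, which carry microRNAs and C/D box small nucleolar RNAs in their introns and exons. The paternal copy produces Dlk1, a transmembrane protein related to Notch ligands that is cleaved into a growth regulator, Rtl1, a protein descended from the Gag and Pol genes of a retrotransposon and needed in the placenta, and Dio3, a selenoenzyme that inactivates thyroid hormone. In mouse pluripotent cell lines the maternal RNAs of this cluster are known to be silenced in some lines and active in others. The terms maternal and paternal are used below for this known pattern. Counts per gene do not separate the 2 parental copies, so neither imprinting nor its loss was measured.

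The members spanned 828 kb from the start of Dlk1 to the end of Dio3, in GRCm38 coordinates of chromosome 12. Dlk1 (ENSMUSG00000040856, 109452823 to 109463336), Meg3 (ENSMUSG00000021268, 109541001 to 109571726), Rian (ENSMUSG00000097451, 109603940 to 109661716), Mirg (ENSMUSG00000097391, 109729764 to 109749460) and Dio3 (ENSMUSG00000075707, 110279068 to 110281097) lie on the plus strand. Rtl1 (ENSMUSG00000085925, 109589193 to 109600330) lies on the minus strand, between Meg3 and Rian. The maternal transcript that crosses it is its antisense. The library kit keeps strand, but the sources used here do not say whether counting used it, so reads of Rtl1 and of its antisense may not have been told apart.

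Some microRNAs of the cluster lie opposite the paternal Rtl1 message, outside Meg3, Rian and Mirg, and their complementarity to it follows from that position. RefSeq (GRCm38.p6) lists 58 hairpins with 114 mature entries between Dlk1 and Dio3, of which 3 lie inside Meg3, 6 inside Rian and 26 inside Mirg. A further 13 lie within the span of Rtl1, and 11 of these, from 6 hairpins, are on the plus strand with an exact complement in the 6358-base Rtl1 transcript. The following 5 are shown because each is complementary over its whole length to Rtl1, the member they are known to target. The seed, bases 2 to 8 from the 5′ end, is in capitals.
mmu-miR-431-5p: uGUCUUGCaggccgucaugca
mmu-miR-433-3p: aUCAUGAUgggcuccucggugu
mmu-miR-127-3p: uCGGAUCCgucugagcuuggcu
mmu-miR-434-3p: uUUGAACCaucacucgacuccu
mmu-miR-136-5p: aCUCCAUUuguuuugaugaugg

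Their complements begin at bases 5072, 3749, 2642, 965 and 199 of the Rtl1 transcript, in that order, so the sites are spread along the message. None of these 5 shares its seed with another mature entry of the cluster.

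Over the whole span from Dlk1 to Dio3 the microRNAs carry mostly different seeds. The 113 distinct mature names of the cluster hold 104 distinct seeds, and 9 seeds are held by more than 1 name. The entries below are shown as examples of each host RNA, with the seed in capitals. The first lies in Meg3, the second in Rian and the others in Mirg.
mmu-miR-770-5p: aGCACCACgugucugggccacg
mmu-miR-370-3p: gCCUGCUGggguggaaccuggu
mmu-miR-134-5p: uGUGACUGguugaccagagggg
mmu-miR-382-5p: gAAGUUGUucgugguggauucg
mmu-miR-410-3p: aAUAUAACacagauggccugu

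The next lines show 2 of the shared seeds, in sequences that differ after the seed. They pair miR-453 with miR-496a-5p, both inside Mirg, and miR-370-5p of Rian with miR-1193-3p, which lies outside the annotated bodies of the members.
mmu-miR-453: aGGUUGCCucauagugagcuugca
mmu-miR-496a-5p: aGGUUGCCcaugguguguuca
mmu-miR-370-5p: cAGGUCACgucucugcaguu
mmu-miR-1193-3p: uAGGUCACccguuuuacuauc

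None of these small RNAs was measured. The annotation places 112 further genes between Dlk1 and Dio3, of which 105 had 0 counts in every library and none passed the filter on low counts. The 67 microRNA genes, 49 to 124 bases long, and the 23 small nucleolar RNA genes were all listed at 0. The effective length that the files assign to a microRNA gene never exceeded 15.6 bases, so a 0 there says nothing about the mature RNAs. Of the annotated genes, 2 microRNA genes lie inside Meg3, 4 microRNA and 13 small nucleolar RNA genes inside Rian and 15 microRNA genes inside Mirg. The host RNAs are what the counts describe.

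Levels of different genes were compared per length, in TPM, a unit that divides counts by transcript length and sums to the same total in every library. Meg3 was by far the most abundant member, with a mean of 281.7 TPM over the 6 libraries, followed by Rian at 46.0 and Mirg at 31.6 TPM. Among 524 tested long noncoding genes they ranked the 14th, the 52nd and the 71st. This class follows annotated gene types (lincRNA, processed transcript, antisense and bidirectional promoter RNA). It includes Cct6a, named for a chaperonin subunit, at rank 3. The paternal genes were low among the coding genes. Dlk1 averaged 2.94 TPM and ranked 8835 of 11803, with 74.8% of tested coding genes above it. Dio3 averaged 1.07 TPM and ranked 10809, and Rtl1 averaged 0.313 TPM and ranked 11735. The order Meg3, Rian, Mirg, Dlk1, Dio3, Rtl1 was the same in each of the 6 libraries, and within either group the ranges of neighbours in that order did not overlap.

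Meg3, a long noncoding RNA studied as a growth suppressor, was higher in the knockout libraries. It had 1675, 1543 and 1752 expected counts in knockout replicates 1 to 3 and 966, 1087 and 1041.9 in the wild type. Every knockout library lay above every wild-type library. Scaled to library size (CPM), this was 276.5 ± 13.2 against 174.9 ± 5.50 (SD, n = 3 each), a 1.58-fold difference and a log2 fold change of 0.66 (SE 0.05). Per length, the values were 344.93, 349.54 and 354.91 TPM against 205.39, 222.41 and 212.92 TPM, again without overlap. In bulk RNA, more cells that express a gene and more RNA per cell cannot be told apart.

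Rian, the host of most of the small nucleolar RNA genes named above, differed in the same direction. Its knockout libraries held 675.47, 569.28 and 802.47 expected counts and its wild-type libraries 436.37, 382.14 and 374.01. The groups did not overlap, although knockout replicate 3 stood above the other 2. The means were 113 ± 9.04 CPM in the knockout and 67.5 ± 7.52 CPM in the wild type (SD, n = 3 each), a 1.68-fold difference with a log2 fold change of 0.75 (SE 0.07). In TPM the knockout values were 52.88, 52.40 and 71.51 and the wild-type values 38.06, 28.64 and 32.43.

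Mirg, a transcript that carries a large block of microRNAs, had 191, 165 and 174 expected counts in the knockout and 114, 105 and 104 in the wild type. The lowest knockout library lay well above the highest wild-type library. The means were 29.5 ± 2.39 against 18.3 ± 1.45 CPM (SD, n = 3 each), a 1.61-fold difference with a log2 fold change of 0.69 (SE 0.11). In TPM the values were 43.84, 35.38 and 37.31 against 27.43, 22.47 and 23.40.

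**Figure D1:**
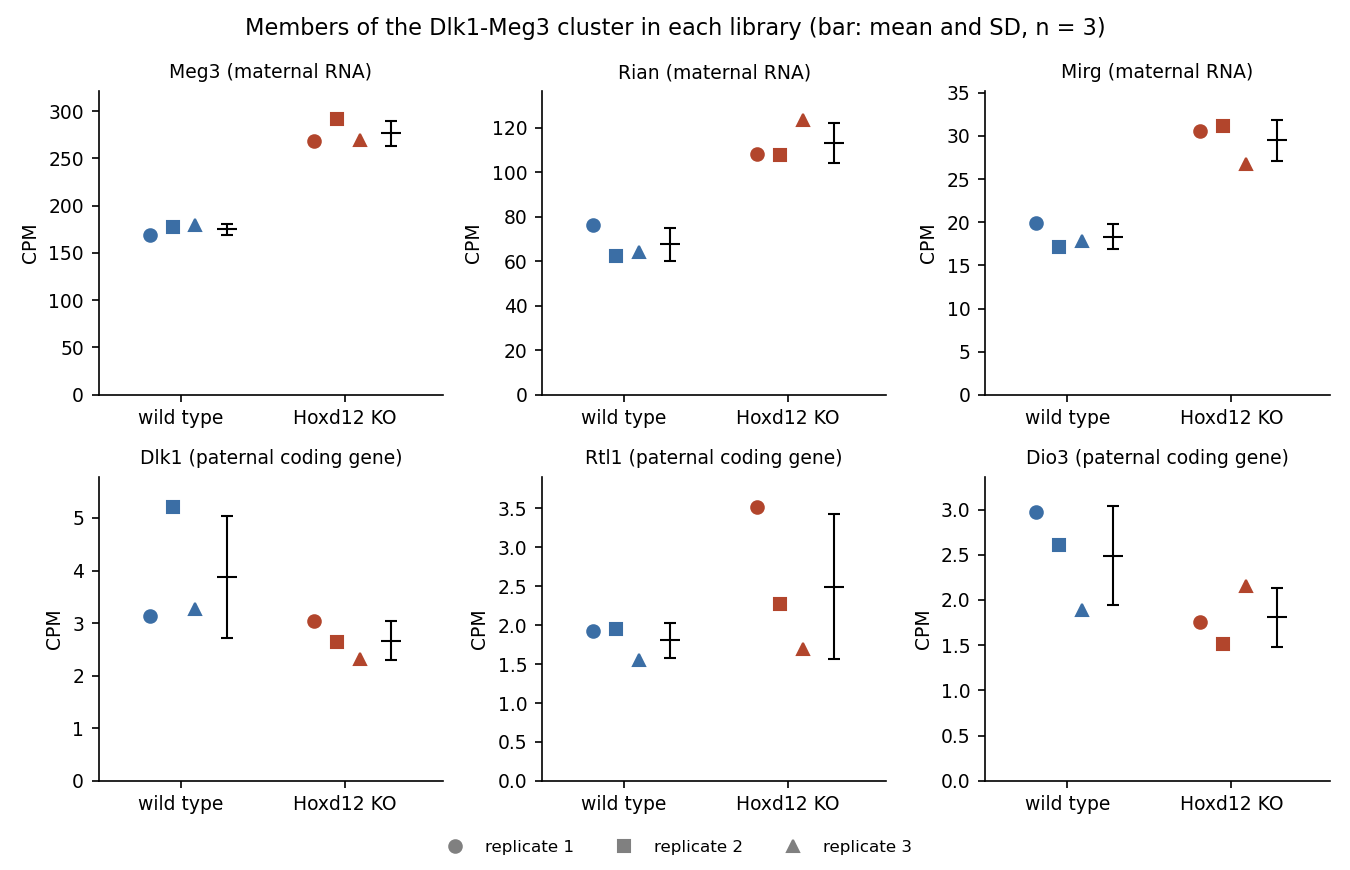
Each panel plots 1 member in CPM on a linear axis that starts at 0, with a marker for each library (circle, square and triangle for replicates 1, 2 and 3) and the mean with SD (n = 3). Meg3, Rian and Mirg separate the knockout from the wild-type libraries by a gap, while the 3 coding genes sit at a few CPM with wide spread.

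The paternal genes were measured with few counts. Dlk1 had 19, 14 and 15 expected counts in the knockout and 18, 32 and 19 in the wild type. Wild-type replicate 2 stood above the other 5 libraries, which lay close together. In CPM the means were 2.67 ± 0.366 against 3.87 ± 1.16 (SD, n = 3 each), with a log2 fold change of -0.54 (SE 0.32). The groups just missed each other in CPM, at 3.04 for the highest knockout library and 3.14 for the lowest wild-type library. Without wild-type replicate 2 the log2 fold change was -0.26.

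In TPM the Dlk1 groups overlapped, with 4.68, 1.49 and 1.73 in the knockout and 2.28, 5.67 and 1.77 in the wild type. The high values, in knockout replicate 1 and wild-type replicate 2, went with the shortest lengths that the files assign to Dlk1, 756.55 and 925.44 bases. The other 4 libraries had assigned lengths of 1357.22 to 1703 bases. Dlk1 has 10 annotated transcripts of 483 to 4653 bases, and the length listed for it is not the same in all libraries.

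Rtl1 had 22, 12 and 11 expected counts in the knockout and 11, 12 and 9 in the wild type, so the groups overlapped. Knockout replicate 1 alone was high. The means were 2.49 ± 0.935 against 1.81 ± 0.226 CPM (SD, n = 3 each), with a log2 fold change of 0.46 (SE 0.39). Without knockout replicate 1 it was 0.12. In TPM Rtl1 lay between 0.21 and 0.54 in all libraries.

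Dio3 had 11, 8 and 14 expected counts in the knockout and 17, 16 and 11 in the wild type. The groups overlapped, with wild-type replicate 3 below knockout replicate 3. The means were 1.81 ± 0.324 against 2.49 ± 0.549 CPM (SD, n = 3 each), with a log2 fold change of -0.44 (SE 0.38). In TPM the knockout libraries held 0.88, 0.80 and 1.35 and the wild-type libraries 1.38, 1.18 and 0.85.

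All 6 members passed the filter on low counts. In the fit across all genes (edgeR's quasi-likelihood test with Benjamini-Hochberg adjustment, called at an adjusted p under 0.05), 3 members were called higher in the knockout, 0 lower and 3 not called. Among all 12891 tested genes, 26.5% were called, 12.1% higher and 14.4% lower. The groups of 4 members did not overlap in CPM, against 39.7% of all tested genes. The median log2 fold change was 0.56 over the members and 0.02 over all tested genes. These counts are descriptions, because the members were picked on this contrast.

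The maternal RNAs kept their proportions to each other. For every 100 counts of Meg3 there were 40.3, 36.9 and 45.8 counts of Rian in the knockout and 45.2, 35.2 and 35.9 in the wild type. The means, 41.0 ± 4.49 and 38.7 ± 5.58 (SD, n = 3 each), differed by less than their spread. For Mirg the values were 11.4, 10.7 and 9.93 in the knockout and 11.8, 9.66 and 9.98 in the wild type, with means of 10.7 ± 0.736 and 10.5 ± 1.15. Meg3 made up 78.2% ± 1.70 of the summed TPM of the 3 RNAs in the knockout and 78.8% ± 2.77 in the wild type. These ratios were not tested, and no p is given for them.

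Summed over Meg3, Rian and Mirg, the level was 441.65, 437.32 and 463.73 TPM in the knockout and 270.88, 273.52 and 268.75 TPM in the wild type, 1.65 times as high in the mean. Summed over Dlk1, Rtl1 and Dio3, it was 6.1, 2.61 and 3.35 TPM against 3.93, 7.12 and 2.83 TPM, so these groups overlapped. The log2 ratio of the maternal to the paternal sum was 6.15, 7.33 and 7.07 in the knockout and 6.07, 5.24 and 6.52 in the wild type. The means, 6.85 ± 0.62 and 5.95 ± 0.65 (SD, n = 3 each), differed by 0.91, and the groups overlapped, since wild-type replicate 3 lay above knockout replicate 1. The difference was 0.56 without wild-type replicate 2 and 1.26 without knockout replicate 1. In these libraries Dlk1 held 5.67 of the 7.12 TPM and 4.68 of the 6.1 TPM of the paternal sum. They are also the libraries with the shortest lengths assigned to Dlk1, so the TPM ratio depends on those lengths. The summed expected counts of the maternal RNAs were 2541.47, 2277.28 and 2728.47 in the knockout and 1516.37, 1574.14 and 1519.91 in the wild type. Those of the paternal genes were 52, 34 and 40 against 46, 60 and 39. The ratio of these counts, not divided by length, was higher in every knockout library than in any wild-type library. With 3 libraries a group, an exact permutation test cannot go below p = 0.10, and none was run.

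**Figure D2:**
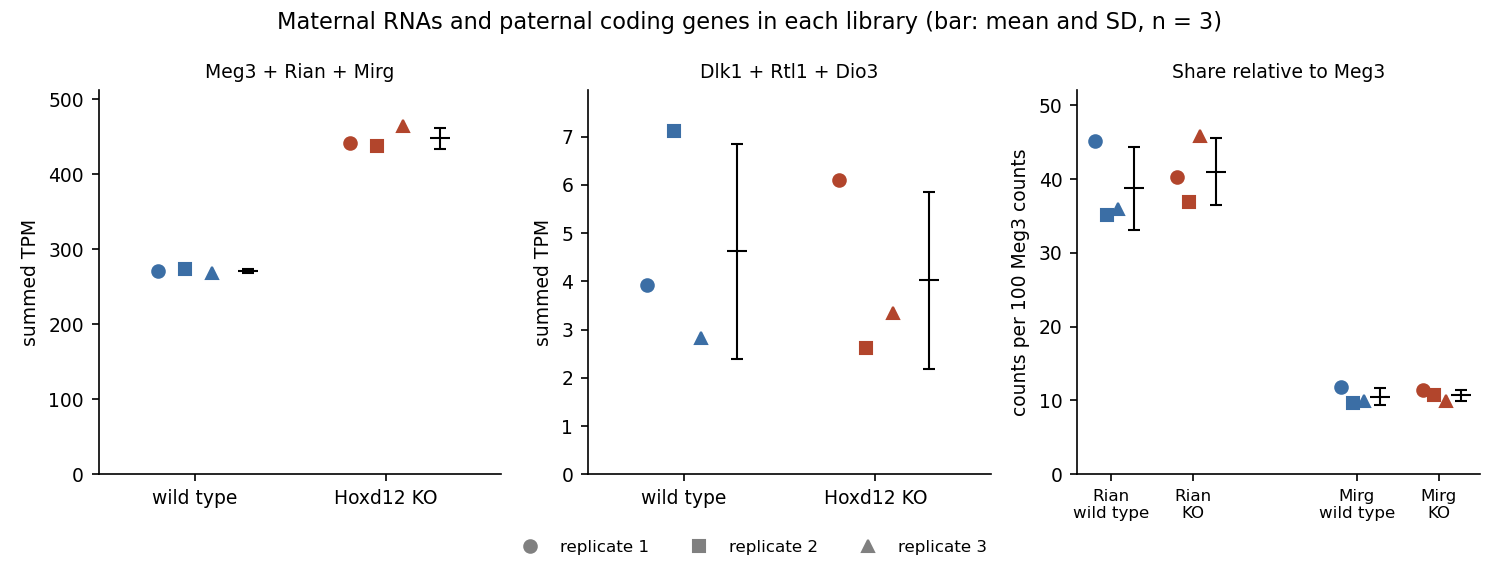
The left and middle panels plot the summed TPM of the 3 maternal RNAs and of the 3 paternal coding genes in each library, and the right panel plots Rian and Mirg counts per 100 Meg3 counts. Markers are replicates and bars give the mean and SD (n = 3). The maternal sums form 2 separate groups, at 437.32 TPM and above in the knockout and at 273.52 TPM and below in the wild type, whereas the paternal sums and both ratios overlap.

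The promoter of Meg3 is shown because the most abundant member starts there. It covers chr12:109540746-109541045 on the plus strand of GRCm38.p6 (RefSeq), from 250 bases before the start to 50 bases after it. A CCAAT box, a full palindromic cAMP response element (TGACGTCA) and the letters TTATATAA are in capitals.
Meg3 promoter: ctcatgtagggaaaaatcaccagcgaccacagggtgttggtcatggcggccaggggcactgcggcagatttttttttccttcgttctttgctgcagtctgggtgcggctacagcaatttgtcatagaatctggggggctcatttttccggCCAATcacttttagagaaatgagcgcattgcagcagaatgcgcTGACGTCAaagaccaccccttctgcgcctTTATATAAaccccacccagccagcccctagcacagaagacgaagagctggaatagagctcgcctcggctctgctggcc

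The response element begins 57 bases before the start. Searched on both strands, TGACGTCA occurs in 1.79% of the 32851 promoters of the table, TATATAA in 3.24% and CCAAT in 37.4%. TATATAA and its reverse complement TTATATA overlap within the letters TTATATAA. The table holds promoters for 5 of the 6 members, with a second start for Meg3. Those of Dlk1, Rian, Mirg, Dio3 and the second Meg3 start hold neither TGACGTCA nor TATATAA. The Mirg window, 109734731 to 109735030, lies inside the Mirg gene, which begins at 109729764 in the annotation used for the counts. It therefore says nothing about the letters at that start. A match describes letters in this window and is not evidence that a factor binds there.

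Genes around the cluster were compared as a check of its borders. The 10 tested genes before Dlk1 held 0 calls by edgeR, DESeq2 or limma on TPM, and 0 at an unadjusted p under 0.05, and had a median log2 fold change of 0.00. The nearest were Begain, a gene for a synaptic protein 385 kb from Dlk1, with 2.91 ± 1.24 CPM in the knockout and 2.58 ± 0.868 in the wild type, and Wdr25, with 5.89 ± 1.74 and 7.30 ± 2.54 CPM (SD, n = 3 each). Neither passed the edgeR test (adjusted p = 0.827 and 0.452). The transcription factor gene Yy1, which lies in the same stretch, was at 53.9 ± 6.19 and 52.6 ± 3.97 CPM.

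Of the 10 tested genes after Dio3, 2 were called higher and 1 lower (median 0.23). Ppp2r5c, a regulatory subunit of protein phosphatase 2A whose gene begins 166 kb from Dio3, rose from 153 ± 7.50 to 175 ± 3.89 CPM (log2 fold change 0.19, SE 0.05, adjusted p = 0.00351 by edgeR). Dync1h1, the heavy chain of cytoplasmic dynein, rose from 271 ± 2.60 to 343 ± 8.18 CPM (log2 fold change 0.34, SE 0.04, adjusted p = 2.44e-07 by edgeR). Per length, Dync1h1 rose from 28.6 ± 2.36 to 64.4 ± 11.3 TPM, a larger rise than in counts. TPM also depends on the length assigned to a gene in each library, and those lengths were not compared for Dync1h1. Its log2 fold change lay between 0.32 and 1.16 over the 14 alternatives. The highest of these was above every alternative of Meg3, Rian and Mirg (at most 0.71, 0.84 and 0.76). The kinase gene Mok, named here because it was the only lower call, fell by 0.39 on the log2 scale (SE 0.13, adjusted p = 0.0252 by edgeR), a call lost in 7 of 14 alternatives at adjusted p of up to 0.145, among them those without knockout replicate 1, knockout replicate 3 or wild-type replicate 2. Over all of chromosome 12, 44 of 478 tested genes were called higher and 68 lower.

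**Figure D3:**
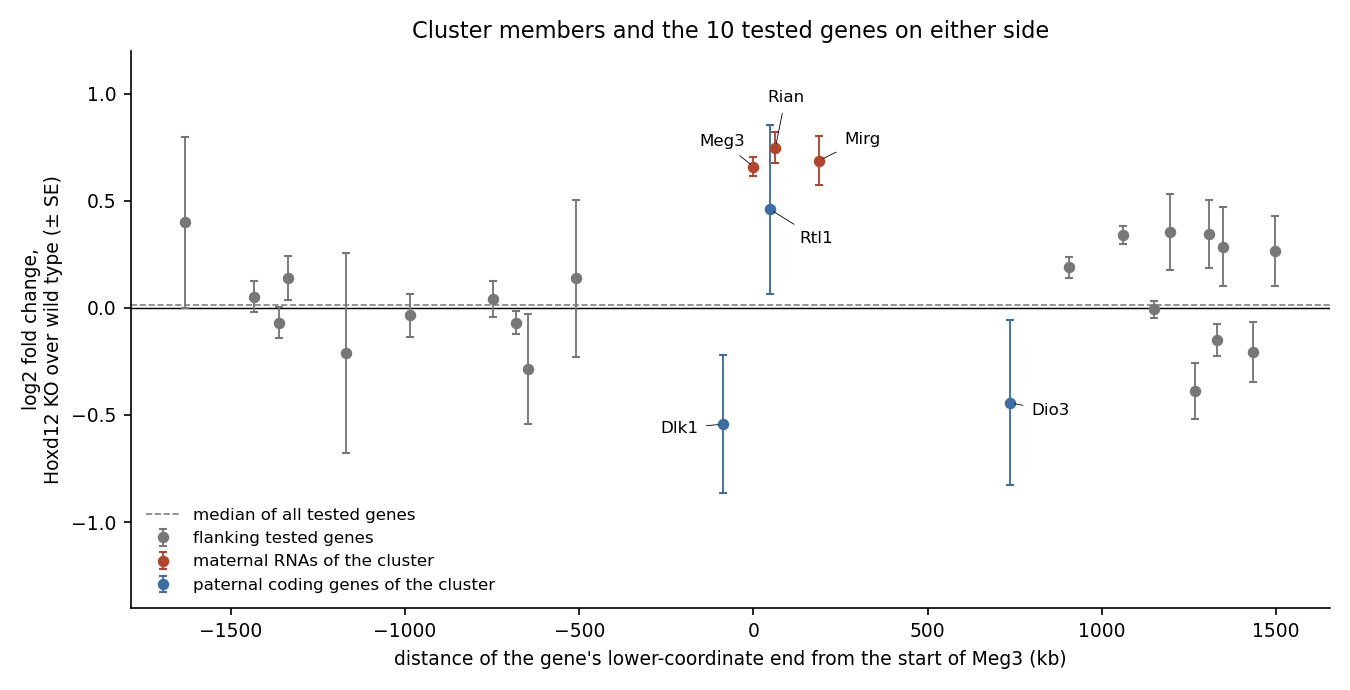
The log2 fold change (knockout over wild type, bars ± SE from edgeR) of the 6 members and of the 10 tested genes on either side is plotted against the distance in kb of each gene's lower-coordinate end from the start of Meg3. In this fit on counts, the 3 maternal RNAs lie between 0.66 and 0.75, above every flanking gene drawn. The paternal genes lie on both sides of 0 with long bars. In TPM, the flanking gene Dync1h1 differed more than the maternal RNAs.

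Small genes inside the cluster were read as counts only. Dio3os, the antisense partner of Dio3, had 4, 2 and 4 expected counts in the knockout and 7, 5 and 5 in the wild type. Gm3379, a processed pseudogene, had 0, 5.87 and 0 against 9.66, 0 and 11.78. Its counts appear and vanish between replicates and are not whole numbers. Reads of a processed pseudogene can be split with near-identical copies, so these counts are uncertain.

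Genes known to set, protect or read imprints changed in both directions. Of 20 tested imprint regulators, 8 were called higher and 3 lower, and their median log2 fold change was 0.15. The de novo DNA methyltransferase Dnmt3b fell from 32.1 ± 2.16 to 19.9 ± 0.878 CPM (log2 fold change -0.69, SE 0.11, adjusted p = 8.13e-06 by edgeR). Ezh2, the catalytic subunit of Polycomb complex 2, rose from 145 ± 1.74 to 187 ± 3.29 CPM (0.37, SE 0.05, adjusted p = 2.23e-07 by edgeR).

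The methylcytosine oxidases Tet1 and Tet2 rose from 47.8 ± 2.24 to 60.9 ± 1.79 CPM and from 19.3 ± 2.30 to 27.2 ± 3.87 CPM (adjusted p = 0.000544 and 0.00226 by edgeR). On TPM with limma neither passed (adjusted p of at least 0.0765), and with the length offset Tet1 did not (adjusted p = 0.170). Trim28, a corepressor that protects methylated imprint control regions, fell by 0.28 on the log2 scale (adjusted p = 5.36e-06 by edgeR). Its partner Zfp57 was at 311 ± 7.55 CPM in the knockout and 287 ± 3.54 CPM in the wild type (adjusted p = 0.0465 by edgeR), a call lost in 11 of 14 alternatives at adjusted p of up to 0.164. The count called higher was 5 with DESeq2 or without wild-type replicate 3, 4 with a length offset and 2 with limma on TPM.

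The Notch pathway was listed because Dlk1 is related to Notch ligands. Of 28 tested genes, 4 were called higher and 1 lower (median log2 fold change 0.05). The endocytic adaptor gene Numbl rose from 33.5 ± 2.85 to 41.8 ± 4.80 CPM, the ubiquitin ligase gene Mib1 from 25.8 ± 1.10 to 32.2 ± 4.11 CPM and the gamma-secretase subunit gene Ncstn from 37.3 ± 3.20 to 45.7 ± 3.37 CPM (adjusted p = 0.0128, 0.0221 and 0.0126 by edgeR). DESeq2 called 0 genes of the list higher. Without knockout replicate 3 the adjusted p of these 3 was 0.117, 0.119 and 0.101, and removing other libraries ended their calls too, each wild-type library for 2 of the 3. The receptor gene Notch2 went from 12.4 ± 0.920 to 15.9 ± 0.415 CPM (adjusted p = 0.0495 by edgeR), a call lost in all 14 alternatives, at adjusted p of 0.0512 to 0.228. Psenen, another gamma-secretase subunit gene, fell by 0.28 on the log2 scale (adjusted p = 0.00637 by edgeR), a call lost in 5 of 14 alternatives at adjusted p of up to 0.192. The target gene Hes1 was at 49.9 ± 6.51 CPM in the knockout and 43.2 ± 4.45 CPM in the wild type (adjusted p = 0.111 by edgeR).

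Thyroid hormone and selenoprotein genes were listed for Dio3. Of 15 tested, 0 were called higher, also with DESeq2, with limma on TPM and at an unadjusted p under 0.05, and 1 was called lower. The median log2 fold change was 0.00. The call was Hr, a corepressor of nuclear receptors, at 1.39 ± 0.535 CPM in the knockout and 3.20 ± 1.52 CPM in the wild type (log2 fold change -1.19, SE 0.42, adjusted p = 0.0343 by edgeR), and it was lost in 9 of 14 alternatives. Without wild-type replicate 1 its adjusted p was 0.305 and without knockout replicate 1 it was 0.176. The other deiodinase genes, Dio1 and Dio2, had at most 1 count in any library. The receptor gene Thra was at 18.8 ± 1.35 and 17.3 ± 2.13 CPM. The machinery that inserts selenocysteine, such as Secisbp2 at 26.2 ± 3.06 and 27.5 ± 2.95 CPM, held no call.

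Genes descended from retrotransposon Gag, the relatives of Rtl1, were mostly too low to test. Of 11, 4 were tested and 0 called by edgeR, DESeq2 or limma on TPM, with 0 at an unadjusted p under 0.05. Peg10, the best known of them and also imprinted, was at 59.1 ± 3.89 CPM in the knockout and 59.7 ± 4.48 CPM in the wild type (adjusted p = 0.918 by edgeR).

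Genes of the machinery that processes microRNAs and small nucleolar RNAs were listed because the maternal RNAs host both. Of 13 tested genes, 0 were called higher by edgeR or DESeq2, with 0 at an unadjusted p under 0.05, and 4 were called lower. Limma on TPM called 1 higher and 1 lower. The median log2 fold change was -0.03. Nop56, a core protein of C/D box particles, fell from 537 ± 10.6 to 433 ± 30.02 CPM (log2 fold change -0.31, SE 0.05, adjusted p = 6.77e-06 by edgeR). Its partners Snu13 and Fbl fell by 0.16 and 0.13 on the log2 scale, and Tarbp2, a Dicer cofactor, by 0.23 (adjusted p = 0.00808, 0.034 and 0.00486 by edgeR). On TPM with limma these last 3 were not called, and single libraries ended their calls as well, such as knockout replicate 1 for Tarbp2 and Fbl (adjusted p = 0.0588 and 0.126) and wild-type replicate 1 for Snu13 (adjusted p = 0.0556). Drosha, at 180 ± 7.32 and 186 ± 6.61 CPM, and Dicer1, at 81.6 ± 3.63 and 84.0 ± 4.81 CPM, did not pass the edgeR test (adjusted p = 0.459 and 0.707).

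Other imprinted genes were compared by the parental copy they were listed under for this report, which was not measured here and may not hold for each gene. Of 18 tested genes listed as expressed from the maternal copy elsewhere in the genome, 4 were called higher and 5 lower (median log2 fold change -0.10). H19, a maternal noncoding RNA like Meg3, went the other way: it fell from 112 ± 1.68 to 9.26 ± 0.816 CPM (log2 fold change -3.59, SE 0.09, adjusted p = 5.45e-25 by edgeR). Its knockout libraries held 44 to 63 counts and its wild-type libraries 644 to 690. The growth restraining genes Phlda2 and Grb10 fell by 0.77 and 0.74 on the log2 scale (adjusted p = 0.00127 and 0.00951 by edgeR), and the Grb10 call was lost with DESeq2, on TPM and without wild-type replicate 3 (adjusted p = 0.0831). Ppp1r9a, a gene for an actin-binding protein of synapses, rose from 12.2 ± 1.74 to 24.6 ± 1.96 CPM (adjusted p = 4.73e-07 by edgeR), a call lost with limma on log2(TPM + 0.1) (adjusted p = 0.0544).

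Of 24 tested genes listed as expressed from the paternal copy, 7 were called higher and 2 lower (median log2 fold change 0.14). DESeq2 called 6 higher and 0 lower, limma on TPM 7 higher and 0 lower, and the number lower was 0 or 1 in 9 of 14 alternatives, among them those without any 1 library except knockout replicate 3. Igf2, a fetal growth factor and the partner of H19 in its cluster, rose from 5.12 ± 1.07 to 10.2 ± 0.962 CPM (log2 fold change 0.97, SE 0.20, adjusted p = 0.000449 by edgeR). Sgce, which encodes epsilon-sarcoglycan, rose from 5.29 ± 1.35 to 13.9 ± 1.57 CPM (1.39, SE 0.19, adjusted p = 9.44e-07 by edgeR). Peg12 was at 1.87 ± 0.905 and 3.89 ± 0.300 CPM (adjusted p = 0.0287 by edgeR), a call lost in 9 of 14 alternatives, at adjusted p of up to 0.180 and without any 1 library except knockout replicate 3. Snurf was called higher, with 9.42 to 19.4 counts in the knockout and 0 to 0.83 in the wild type. It overlaps Snrpn, which was at 226 ± 3.19 and 223 ± 12.6 CPM, so its share of the reads is uncertain and no fold is given.

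**Figure D4:**
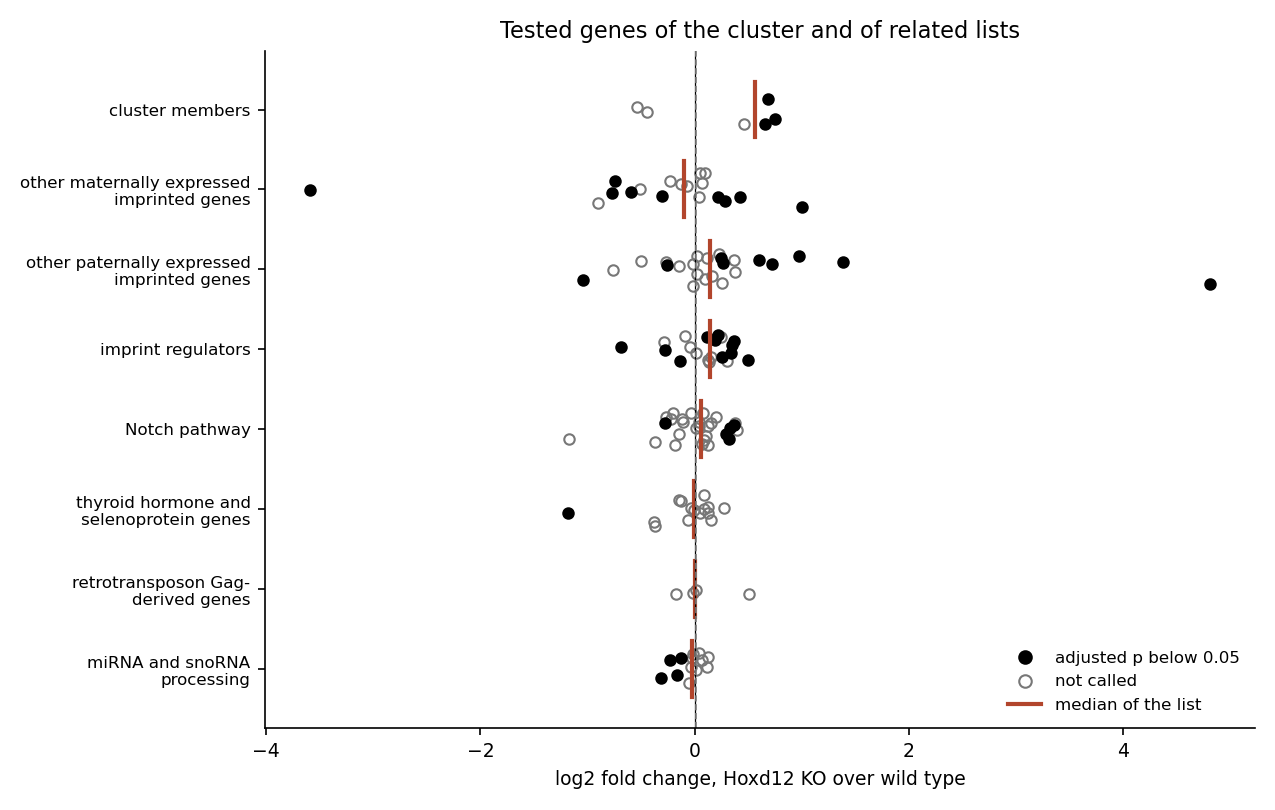
Each point is the log2 fold change of 1 tested gene (filled where the adjusted p is below 0.05, open where not called), arranged by gene list, with a bar at the list's median and a dashed line at the median of all tested genes. The cluster's median lies at 0.56, the other lists' medians between -0.10 and 0.15, and the points farthest to the left and right are H19 and Snurf.

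Taken by annotated type as above, long noncoding genes as a class did not follow Meg3. Of 524 tested, 28 were called higher and 115 lower, and the median was -0.18. Genes whose values ran most like those of Meg3 were found by the distance between profiles of log2(CPM + 0.5), centred on each gene's mean over the 6 libraries, among 9767 genes with a mean of at least 5 CPM. The 5 nearest were Tra2a, a splicing factor gene, at 119 ± 2.87 CPM in the wild type and 182 ± 1.203 in the knockout, followed by Zfp704, Tnks, Tsc22d2 and Ttc17. Their distances to Meg3 ran from 0.10 for Tra2a to 0.16 for Ttc17. Placed in the same order, Mirg would be the 65th and Rian the 280th, whereas Rtl1, Dio3 and Dlk1 would be 4314, 9268 and 9383. The 5 nearest to Dlk1 were Asic1, Slc12a8, Dennd3, Hist1h2ae and Mvp. Dio3 would rank 3105 there. Dlk1, Rtl1 and Dio3 lie below the minimum of 5 CPM set for the 9767 genes, so counting error weighs more on their distances. The distance includes the difference between knockout and wild type, the contrast on which the members were picked. The members' places in these orders therefore restate that contrast and are not a test. Likeness over 6 libraries describes these profiles and says nothing of shared function.

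Facts of the whole series bear on these values as follows. Library totals lay between 5412577 and 6280934 expected counts, so that 3 counts of a gene equal 0.462 to 0.567 CPM, a limit for counting error only. Hoxd12 itself (ENSMUSG00000001823, chromosome 2, 74675013 to 74677705) had 0 counts in all 6 libraries, wild type included, so it cannot check the labels. Of the 3420 genes called, 1559 were higher and 1861 lower. The split was 1107 and 749 with limma on log2(TPM + 1), and 701 and 1287 with DESeq2. Of 12 stem cell markers, 10 were not called. Nanog fell from 561 ± 64.4 to 429 ± 19.3 CPM and Zfp42 rose from 187 ± 3.58 to 228 ± 12.6 CPM (adjusted p = 0.00167 and 1.43e-05 by edgeR), and the Nanog call was lost in 3 of 14 alternatives, at adjusted p of up to 0.0934 without knockout replicate 2. The 12 summed to 9217 to 9712 CPM in the knockout and 9055 to 9665 in the wild type, with Dppa5a alone at 5273 ± 313 and 5162 ± 243 CPM. Markers of fibroblasts, a cell type that expresses this cluster, summed to 17.4 to 20.8 and 18.2 to 26.2 CPM, with 5 of 14 at 0 in every library (Col3a1, Postn, Lum, Dcn and Fap). Of these 14, Thy1 was called lower. Sums over the primitive endoderm, blood and neural lists were lower in every knockout library, at 222 to 228 against 240 to 245 CPM, 83.4 to 90.4 against 92.2 to 95.6 and 58.3 to 62.2 against 65.3 to 70.7. The largest share of each sum came from 1 gene that was lower in the knockout, Sparc, Pecam1 or Tubb3, of which Sparc and Tubb3 were called. Other members went the other way: Col4a1 rose from 18.4 ± 1.69 to 26.7 ± 1.43 CPM (adjusted p = 0.000574 by edgeR), and Gata4 was at 2.11 ± 0.910 CPM in the wild type and 4.46 ± 2.08 CPM in the knockout (adjusted p = 0.0247 by edgeR). The Gata4 call was lost in 7 of 14 alternatives, at adjusted p of up to 0.277 without knockout replicate 1. On TPM with limma the calls of Thy1, Sparc, Tubb3 and Col4a1 were lost, and that of Thy1 also without knockout replicate 1. Dab2 and Sox1 were at 2.12 ± 0.727 and 5.12 ± 1.22 CPM in the knockout and at 0.856 ± 0.318 and 3.49 ± 0.504 CPM in the wild type. In these lists Sox7, Ptprc, Hbb-bt and Neurog2 were at 0. The part of these differences in the values of the cluster was not tested.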

How the data were processed

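The 6 libraries came from a stranded mRNA kit, per the labels' protocols. The authors deposited expected counts, which are estimates with decimals and carry no depth scaling. Beside them stand TPM and FPKM, both divided by length and depth, and each gene's length, per the file headers. Bowtie 0.12.2 is named with mm8 and mm10 as builds in the submitters' processing notes. Neither the quantifier nor its annotation, nor whether strand was used, is given in the sources used here. Each of the 55450 identifiers matched GENCODE M21, whose GRCm38 coordinates and symbols are used.

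Expected counts were rounded. The fit used edgeR 4.0.16 (R 4.3.3): TMM scaling, filterByExpr and a robust quasi-likelihood test of the group alone, and p-values were adjusted by Benjamini-Hochberg over 12891 genes. CPM values use TMM-scaled library sizes. The SE is the log2 fold change divided by the root of the F statistic. FPKM entered only as an alternative for the ratio of maternal to paternal sums. The steps were tested on simulated data.

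The members and gene lists were chosen with earlier results of these data known. Named outside the members were up to 4 called genes with the largest change per list (mean of 1 CPM or more), the 2 nearest tested genes on each side, the 5 genes most like Meg3 and Dlk1, and small genes of the cluster with at least 10 counts in all. Genes named beyond this rule (such as Yy1, Mok, Zfp57, Trim28, Psenen, Hes1, Thra, Secisbp2, Dio1, Dio2, Peg10, Drosha, Dicer1, Snrpn and the cell type markers) were added with their values known. The lists hold genes of imprint regulation, Notch, thyroid hormone, Gag-derived proteins, small RNA processing and other imprinted loci, and markers of 5 cell types. Replicate numbers come from the sample titles. Libraries with the same number did not deviate together (r = 0.00359, 0.0413 and 0.0244). This cannot exclude that they were handled as pairs, and the replicate block among the alternatives pairs them.

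Alternatives were a replicate block, RLE scaling, an offset for each library's effective lengths, DESeq2 1.42.0, a filter of 1 CPM in 3 libraries or none at all, limma 3.58.1 on log2 TPM with a pseudocount of 1 or 0.1, and leaving out each library. MicroRNA and promoter sequences are from RefSeq (GRCm38.p6). The promoter of Rtl1 and protein sequences were not analysed here.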

Additional observations from a re-analysis of the deposited data

How the results depend on the processing

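Under 14 alternatives each, all 6 members kept the sign of their log2 fold change. Meg3 lay between 0.61 and 0.71, Rian between 0.68 and 0.84 and Mirg between 0.56 and 0.76, and each was called in all 14. Dlk1 lay between -0.67 and -0.22, Rtl1 between 0.12 and 0.69 and Dio3 between -0.61 and -0.090, and none of these was called in any. The members were picked on this contrast, so their calls describe these same libraries and are not a test. The share of all tested genes called in every alternative was not counted. Genes outside the cluster, such as Trim28, Dnmt3b, Ezh2 and Nop56, were also called in all 14, while others, such as Notch2, lost their call. The Mirg value was 0.56 with the length offset. On log2(TPM + 1), Dlk1 was -0.22 and Dio3 -0.090, and on log2(TPM + 0.1) Dio3 was -0.16. Leaving out 1 library at a time moved Rtl1 between 0.12 and 0.69 and the log2 ratio of maternal to paternal sums between 0.56 and 1.26. The number of genes called, 3420, was 1988 with DESeq2, 1856 with limma at a pseudocount of 1 TPM and 1824 at 0.1 TPM. DESeq2 called 701 genes higher. Limma called 749 and 738 genes lower at these pseudocounts, and its log2(TPM + 0.1) fit moved the median of all genes by 0.10. The cause of these changes was not tested.

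With the replicate block, 3353 genes were called, 1513 higher and 1840 lower, and the members' values were 0.66 for Meg3, 0.74 for Rian, 0.69 for Mirg, -0.51 for Dlk1, 0.44 for Rtl1 and -0.44 for Dio3. Among the genes named by rule outside the cluster, the block ended the calls of Notch2 and Hr. Of 35 such genes, 15 lost their call in at least 1 alternative and no called gene changed sign. The 35 include Begain, Wdr25, Asic1, Slc12a8, Dennd3 and Hist1h2ae, which were not called and so had no call to lose. Begain, which was not called, was -0.24 without knockout replicate 2 and positive otherwise. Depth limits Dlk1, Rtl1 and Dio3, which had 8 to 32 counts a library.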
